A study of Mus musculus with 20 samples.

Results

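Hmgcs1, Idi1, Fdps, Fdft1, Sqle, Lss and Cyp51 encode enzymes that lie in order along the route from acetyl units to cholesterol. These 7 genes were taken by name from the 14776 genes in the deposited table of epididymal white adipose tissue (eWAT), and all 7 were present. RNA was sequenced from 20 male C57BL/6J mice in 3 groups, to ask how a fatty diet and a plant alkaloid preparation given on top of it change this fat depot. All mice were 6 weeks old at the start. The study describes an overnight fast before they were killed, so the levels below are those of fasted mice. NC mice (n = 6) ate normal chow. The study describes no dosing with saline for them, so in HFD against NC a part of dosing cannot be told apart from diet. HFD mice (n = 7) ate a high-fat diet from the age of 6 weeks, for 14 weeks, and then received saline for another 6 weeks on the same diet. SZ-A mice (n = 7) had the same 14 weeks of high-fat diet and then 6 weeks of Ramulus Mori (Sangzhi) alkaloids by mouth with the diet continued, so high-fat feeding is shared by the HFD and SZ-A groups.

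Cholesterol synthesis starts with the mevalonate steps, passes through small isoprenoids to squalene, and ends with the closing and trimming of the sterol rings. When membrane sterol falls, SCAP carries the transcription factor SREBP-2 out of the endoplasmic reticulum to be cut free by proteases, and the free factor switches on most genes of the pathway. Adipose tissue makes little cholesterol of its own but stores much of it in the membrane of the fat droplet, and its macrophages take up and export sterol.

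Several mice stood apart and touch what follows. NC 6 (NC replicate 6) was the highest of its group for all 7 members, and its 13 adipocyte markers summed to 448.8 FPKM against 6751 to 16707 in the other NC mice, 1843 to 8298 in HFD mice and 5503 to 17235 in SZ-A mice. Of 10 markers of epididymis and epithelium, which lie next to this fat pad, only Krt18 and Adgrg2 were in the table. The table holds only genes above 0 in every mouse, so the absence of the other markers does not describe single mice. The sum of Krt18 and Adgrg2 lay between 35.8 and 872.2 FPKM in NC mice, 1.74 and 4.22 in HFD mice, and 1.84 and 221.8 in SZ-A mice. It passed 100 FPKM in NC 1, NC 2, NC 6, SZ-A 2 and SZ-A 7. SZ-A 2 was the highest of its group for 6 of the 7 members. HFD 1 and SZ-A 5 were each the lowest of their group for 5 members, and had the highest macrophage marker sums of their groups, at 10628 and 5364 FPKM. The share of reads on mitochondrial genes was 11.6% in SZ-A 5 against 1.67% to 5.11% in the other SZ-A mice. In every HFD mouse (1.67% to 2.92%) it was below that of every NC mouse (3.30% to 8.34%). Over 15 macrophage markers the summed level lay between 100.1 and 867.8 FPKM in NC mice, 3942 and 10628 in HFD mice, and 1571 and 5364 in SZ-A mice. In such bulk tissue, fewer cells of a type and less RNA per cell cannot be told apart, and the part of these marker and mitochondrial differences in the results on the 7 genes was not tested.

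Fdft1, the squalene synthase that commits isoprenoids to sterols, was the member with the clearest difference between groups. Its mean level in HFD mice was exceeded 3.70 times by that of NC mice and 2.18 times by that of SZ-A mice, as ratios of mean FPKM (fragments per kilobase of exon, scaled to the depth of the library). Of the other 6 genes, none passed the test in any of the 3 comparisons, apart from Fdps in HFD against NC. The Fdps difference was small on the log2(FPKM + 1) scale but 2.92-fold as a ratio of mean FPKM (NC over HFD). It rests on 1 to 38 reads a mouse. The fold changes of all 6 genes in HFD against NC were also below 0, and that of Cyp51 had an unadjusted p under 0.05 in limma. Sqle and Cyp51, late in the route, varied together from mouse to mouse, while Hmgcs1, near its start, varied with Idi1 and hardly with Sqle or Cyp51.

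Counted over the 7 genes, 0 were higher and 2 lower in HFD than in NC (Fdps and Fdft1), where limma called 21.0% of all 14706 tested genes higher and 20.1% lower. At an unadjusted p under 0.05, 0 were higher and 3 lower in that comparison (Fdps, Fdft1 and Cyp51). All 7 fold changes were below 0, with a median of -0.27 on the log2 scale against -0.04 over all genes tested. That median was -0.17 without NC 6, -0.75 with a pseudocount of 0.1, and -0.12 without the 5 mice rich in Krt18 and Adgrg2, where Sqle (0.08) and Lss (0.25) were above 0. In SZ-A against HFD 1 was higher (Fdft1) and 0 lower, with 9.47% and 13.3% of 14695 genes called, and the median was 0.05 against 0.03 over all genes, or -0.21 without the mice rich in Krt18 and Adgrg2. In SZ-A against NC 0 of the 7 passed in either direction by limma, 0 had an unadjusted p under 0.05 and voom on recovered reads called 0, while limma called 4.15% of 14718 genes higher and 0.455% lower. The share of members called was thus somewhat above that of all genes for lower in the first comparison and for higher in the second. It was below that of all genes in the opposite directions, with 0 called. With 7 genes each share moves widely with 1 gene, so these counts are not apart from the background. Without the 5 mice rich in Krt18 and Adgrg2, Fdft1 was the 1 member called lower in HFD, and in SZ-A against HFD it was the 1 member called higher, with 1 (Sqle) lower.

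The study's methods also ask for a change of over 1.5 log2 units. Fdft1 in HFD against NC was then the only member left, among 5.43% of genes called higher and 2.54% lower. In SZ-A against HFD, with 0.306% and 0.558% of genes, and in SZ-A against NC, with 1.73% and 0.0544%, 0 members were left. Read as a plain fold change of 1.5, which the study's text also gives, the limit leaves Fdft1 called in both HFD against NC and SZ-A against HFD. Fdft1 in HFD against NC was also the only member whose groups did not overlap. Genes without overlap made up 12.7% (higher) and 7.77% (lower) in that comparison, 2.07% and 4.01% in SZ-A against HFD, and 3.22% and 0.347% in SZ-A against NC.

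Promoter sequence is shown for Hmgcs1, Cyp51 and Lss, because Hmgcs1 and Cyp51 varied apart across mice while Lss and Cyp51 varied together. Upstream windows of 250 bases were in the RefSeq table (GRCm38.p6) for Hmgcs1, Idi1, Lss and Cyp51 and not for Fdps, Fdft1 and Sqle. The motifs TCACNCCAC, CCAAT and GGGCGG were searched on both strands. The first is a form of the sterol regulatory element that SREBP-2 binds, and the others are the boxes of its partner factors NF-Y and Sp1. Capitals mark the matches, each window is written 5′ to 3′ along the gene's own strand, and 49 bases of the Cyp51 and 17 bases of the Lss window nearest the start are left off because GENCODE release M21 places them inside the gene.
Hmgcs1, chr13:119690101-119690350, plus strand: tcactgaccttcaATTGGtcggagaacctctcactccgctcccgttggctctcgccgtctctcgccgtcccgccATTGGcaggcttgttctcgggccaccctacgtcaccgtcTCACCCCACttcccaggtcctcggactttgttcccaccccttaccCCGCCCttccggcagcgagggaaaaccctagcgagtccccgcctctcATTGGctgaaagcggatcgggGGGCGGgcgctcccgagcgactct
Cyp51, chr5:4104747-4104947, minus strand: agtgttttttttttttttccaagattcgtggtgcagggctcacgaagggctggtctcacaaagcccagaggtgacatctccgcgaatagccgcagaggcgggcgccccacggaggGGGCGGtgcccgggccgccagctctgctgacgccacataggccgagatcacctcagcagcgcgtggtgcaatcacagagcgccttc
Lss, chr10:76531355-76531587, plus strand: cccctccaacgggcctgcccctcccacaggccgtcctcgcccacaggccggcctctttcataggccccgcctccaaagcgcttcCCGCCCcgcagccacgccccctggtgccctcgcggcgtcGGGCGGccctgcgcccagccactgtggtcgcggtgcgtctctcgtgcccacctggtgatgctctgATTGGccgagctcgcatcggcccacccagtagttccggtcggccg

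The sterol element was matched in Hmgcs1 alone of the 4 windows, from 137 to 129 bases before the start, and 1.05% of the 32815 RefSeq promoter windows hold it. CCAAT was matched in all 4 windows, against 33.8% of all windows, and that of Cyp51, from 29 to 25 bases before the start, lies in the bases left off. GGGCGG was also matched in all 4, against 32.7% of all windows. The Idi1 matches, with CCAAT from 45 to 41 and 14 to 10 and GGGCGG from 69 to 64 bases before the RefSeq start, all lie in the 105 bases of that window that GENCODE places inside the gene, and the rest of the Idi1 window held none. The matches are a description of letters, and other forms of these elements were not searched.

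Hmgcs1 (ENSMUSG00000093930, chromosome 13, 119690379 to 119708260, plus strand, GRCm38) encodes the cytosolic synthase that makes HMG-CoA, the substrate of the mevalonate steps. It had the highest level of the 7, with a mean of 33.8 FPKM over the 20 mice and 1025 to 5304 reads a mouse. Its lowest, median and highest values were 19.1, 32.6 and 53.9 FPKM in NC, 14.5, 30.5 and 33.9 in HFD, and 21.5, 43.8 and 63.0 in SZ-A mice. The groups overlapped, although 4 of the 7 SZ-A mice lay above every HFD mouse. Against HFD, Hmgcs1 in SZ-A differed by a log2 fold change of 0.52 ± 0.24 (SE) with an adjusted p of 0.13 in limma, and against NC, HFD differed by -0.24 ± 0.26 with an adjusted p of 0.48. Without SZ-A 5, the lowest of its group, the first difference was 0.65 with an adjusted p of 0.044.

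Idi1 (ENSMUSG00000058258, chromosome 13, 8885501 to 8892451, plus strand) encodes the isomerase that readies the first isoprenoid unit for chain building. Idi1 lay between 1.77 and 8.34 FPKM in NC mice (median 2.91), between 1.17 and 3.36 in HFD mice (2.93), and between 0.246 and 6.58 in SZ-A mice (2.47). The medians lay close together and the groups overlapped fully, with NC 6 and SZ-A 2 far above and SZ-A 5, at 12 reads, far below the rest. The log2 fold change was -0.27 ± 0.25 (SE) for HFD against NC and -0.18 ± 0.29 for SZ-A against HFD, neither called by limma (adjusted p 0.41 and 0.69). Other genes, the pseudogene Gm13502 included, match 33.3% of the transcript at 95% identity or more.

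Fdps (ENSMUSG00000059743, chromosome 3, 89093588 to 89101959, minus strand) encodes the synthase that joins isoprenoid units into farnesyl diphosphate. The lowest, median and highest values of Fdps were 0.0148, 0.267 and 0.391 FPKM in NC, 0.0154, 0.0949 and 0.147 in HFD, and 0.0258, 0.104 and 0.490 in SZ-A mice. All 7 HFD mice lay below the NC median, but NC 3 lay below every HFD mouse, at 1 read. HFD was lower than NC by a log2 fold change of -0.20 ± 0.07 (SE) on the log2(FPKM + 1) scale, with an adjusted p of 0.035 in limma, and that call was lost in 7 of 11 other analyses and on leaving out any 1 of 11 of the 13 mice. Other genes, 4 of them pseudogenes, match 91.4% of the Fdps transcript at 95% identity or more, and how reads that fit several places were counted is not given in the sources used here, so its level is uncertain.

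Fdft1 (ENSMUSG00000021273, chromosome 14, 63145150 to 63179578, minus strand) joins farnesyl groups head to head into squalene. Its lowest, median and highest values were 12.9, 23.9 and 52.2 FPKM in NC mice, on 873 to 3216 reads. In HFD mice they were 4.25, 8.45 and 10.2 FPKM, on 277 to 773 reads. In SZ-A mice they were 7.21, 17.5 and 26.2 FPKM, on 425 to 2039 reads. Every HFD mouse lay below every NC mouse, and 6 of the 7 SZ-A mice lay above every HFD mouse, the exception being SZ-A 5.

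Fdft1 fell in HFD against NC with a log2 fold change of -1.68 ± 0.29 (SE, 95% interval -2.31 to -1.06; adjusted p = 4.9e-04, limma). The exact permutation test over mice gave p = 5.8e-04, the smallest value this design can reach. It rose in SZ-A against HFD by 1.0 ± 0.25 (interval 0.48 to 1.53; adjusted p = 0.010, limma; exact permutation p = 0.0052). Between SZ-A and NC the difference was -0.68 ± 0.32 (interval -1.36 to 0.01; adjusted p = 0.27, limma), with 2 SZ-A mice below every NC mouse and 3 NC mice above every SZ-A mouse. The 3 comparisons share mice, so they are not independent of each other.

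Both Fdft1 calls were made again whichever single mouse was left out, with values from -1.87 to -1.48 and from 0.89 to 1.18. Without the 5 mice whose Krt18 and Adgrg2 passed 100 FPKM, they were -1.28 (adjusted p = 0.0034) and 0.84 (adjusted p = 0.031, limma). Fdft1 shares 774 exon bases, 18.3% of its exon length, with Ctsb on the opposite strand, a lysosomal protease gene abundant in macrophages. Ctsb moved the other way, with 184.6 ± 62.3 FPKM (SD) in NC mice, 1497 ± 391 in HFD mice and 740.3 ± 282 in SZ-A mice. The library kit as named does not mark strand and the strand setting of the counting is not given in the sources used here, so reads from the shared stretch cannot be told apart, and its part in the Fdft1 values was not tested. A processed pseudogene, Gm6781, matches another 1249 bases of the transcript at 97.4% identity.

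**Figure D1:**
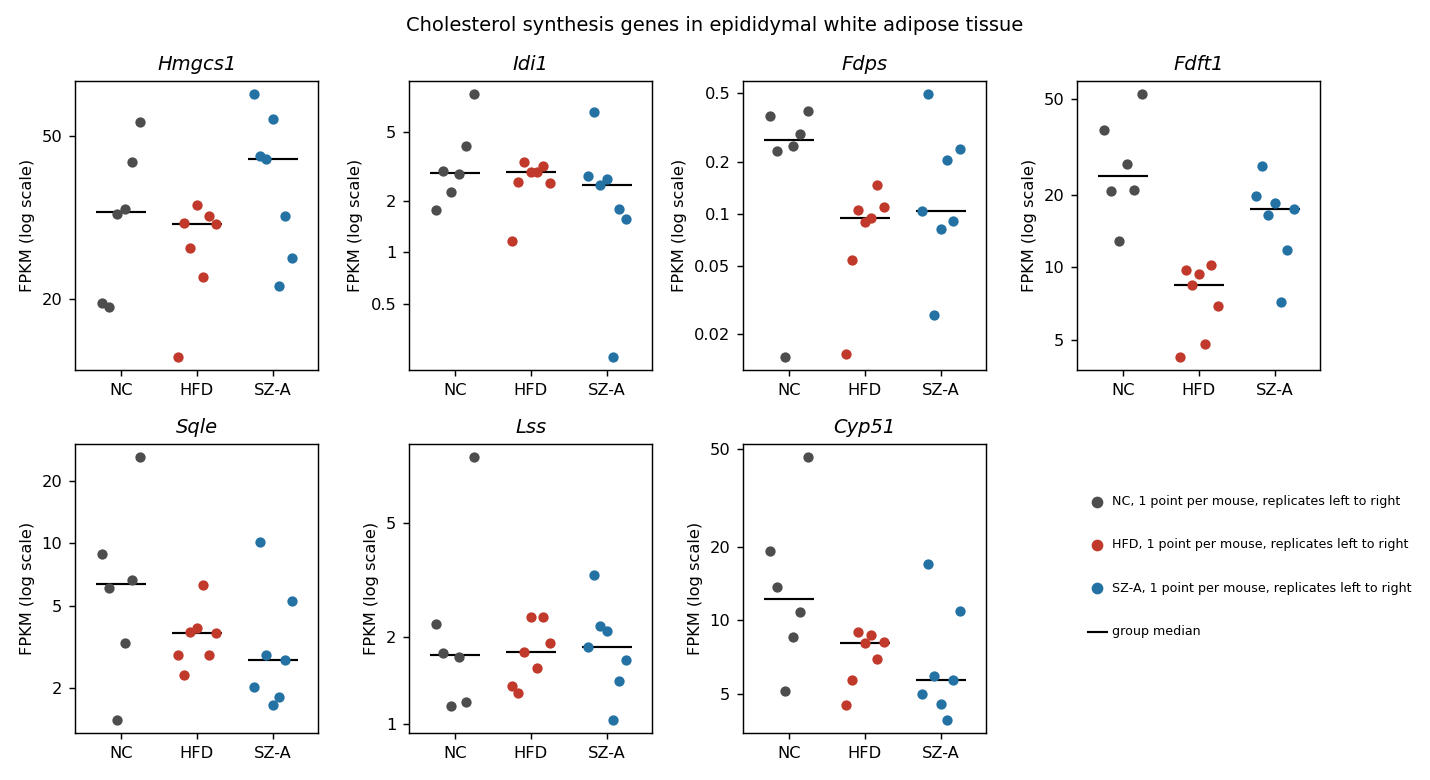
FPKM of each of the 7 genes on a log axis, with 1 point per mouse (replicates from left to right within a group) and a line at the group median, for 6 NC, 7 HFD and 7 SZ-A mice. In the Fdft1 panel the 7 HFD points lie between 4.25 and 10.2 FPKM and the NC points from 12.9 upwards, while in the other panels the groups overlap.

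Sqle (ENSMUSG00000022351, chromosome 15, 59315077 to 59331192, plus strand) encodes the squalene epoxidase, a rate-limiting enzyme of the sterol part of the route. Sqle lay between 1.40 and 26.1 FPKM in NC mice (median 6.36), between 2.32 and 6.32 in HFD mice (3.69), and between 1.65 and 10.1 in SZ-A mice (2.73). The NC mice spanned the range of both other groups, with NC 6 highest and NC 3 lowest of all 20. On the log2 scale HFD differed from NC by -0.68 ± 0.43 (SE; adjusted p = 0.22, limma) and SZ-A from HFD by -0.12 ± 0.29 (adjusted p = 0.80). No other gene matches its transcript at 95% identity or more.

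Lss (ENSMUSG00000033105, chromosome 10, 76531588 to 76557138, plus strand) folds squalene epoxide into lanosterol, the first sterol. The lowest, median and highest values of Lss were 1.15, 1.73 and 8.47 FPKM in NC, 1.28, 1.77 and 2.35 in HFD, and 1.03, 1.85 and 3.28 in SZ-A mice. The 3 medians were almost level, and NC 6 alone lay above 4 FPKM. The log2 fold change was -0.21 ± 0.29 (SE) for HFD against NC (adjusted p = 0.59, limma) and 0.05 ± 0.15 for SZ-A against HFD (adjusted p = 0.84), with a 95% interval from -0.27 to 0.36 for the latter. Without NC 6 the first value was 0.11.

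Cyp51 (ENSMUSG00000001467, chromosome 5, 4081145 to 4104746, minus strand) encodes the cytochrome that takes a methyl group off lanosterol. Cyp51 lay between 5.13 and 46.5 FPKM in NC mice (median 12.2), between 4.53 and 8.98 in HFD mice (8.12), and between 3.93 and 16.9 in SZ-A mice (5.72). In NC, 4 mice lay above every HFD mouse, while NC 3 and NC 4 lay within the HFD range. HFD differed from NC by a log2 fold change of -0.84 ± 0.37 (SE) with an adjusted p of 0.083 in limma, and SZ-A from HFD by -0.08 ± 0.26 with an adjusted p of 0.85. The exact permutation test gave p = 0.044 for HFD against NC, not adjusted for the number of genes.

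The HFD comparisons of Sqle and Cyp51 leaned on NC 3 and NC 6. Without NC 3, the lowest NC mouse for 5 members, Sqle (-1.0, adjusted p = 0.040) and Cyp51 (-1.09, adjusted p = 0.018, limma) passed the test as lower in HFD. Without NC 6 the values were -0.30 and -0.50 (adjusted p 0.45 and 0.13). Without the 5 mice rich in Krt18 and Adgrg2 they were 0.08 and -0.12 for HFD against NC, and Sqle in SZ-A against HFD was -0.51 with an adjusted p of 0.048.

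Fdft1 was also set against each other member of the same mouse as a ratio. This is described with no test, because Fdft1 was singled out after its values were seen. The ratio of Fdft1 to Hmgcs1 in FPKM had a lowest, median and highest value of 0.400, 0.890 and 1.89 in NC, 0.213, 0.294 and 0.321 in HFD, and 0.314, 0.370 and 0.696 in SZ-A mice. All HFD mice lay below all NC mice in this ratio, while SZ-A and HFD overlapped. Against Idi1 the median ratios of NC, HFD and SZ-A mice were 6.65, 3.20 and 6.92. The HFD mice, at most 3.82, lay below every mouse of both other groups, though SZ-A 2 was close at 3.98. Against Lss the medians were 13.8, 4.0 and 8.41, and against Cyp51 they were 1.94, 0.941 and 2.06, with overlap between HFD and each other group in both. The same overlap held against Sqle (medians 3.795, 2.257 and 4.325) and against Fdps (104.6, 80.26 and 129.8). Of the 6 ratios, 2 thus set all HFD apart from all NC mice, and 1, that to Idi1, all SZ-A from all HFD mice.

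**Figure D2:**
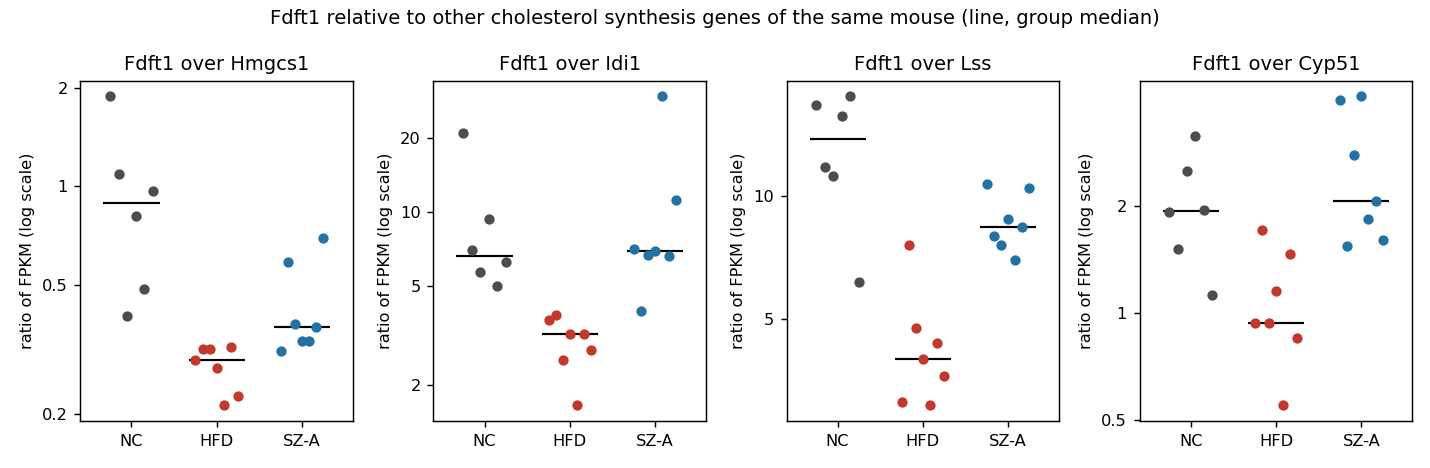
Ratio of Fdft1 to Hmgcs1, Idi1, Lss and Cyp51 in FPKM within each mouse, on log axes, with 1 point per mouse and a line at the group median. The HFD median is the lowest in each panel, at 0.294, 3.20, 4.0 and 0.941, and the HFD points overlap those of both other groups for Lss and Cyp51.

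FPKM are scaled to exon length, so levels can be set side by side between genes only roughly. The length covers all annotated exons of a gene. It was 10787 bases for Lss, 5546 for Sqle and 4208 for Fdps, against 4667, 2758 and 1382 in their longest coding transcripts. The order below is therefore one of FPKM, and an order of transcript number may differ. The order of mean level over the 20 mice was Hmgcs1 (33.8 FPKM), Fdft1 (17.1), Cyp51 (10.4), Sqle (5.23), Idi1 (2.96), Lss (2.13) and Fdps (0.169). Hmgcs1 was above Fdft1 in 18 of 20 mice, Cyp51 above Sqle and Lss above Fdps in 20 of 20. Sqle was above Idi1, and Idi1 above Lss, in 15 of 20, so these neighbours were not apart beyond the spread between mice. Fdft1 was above Cyp51 in 6 of 6 NC and 7 of 7 SZ-A mice but in 3 of 7 HFD mice. From the lowest to the highest mouse, Hmgcs1 spanned 4.35-fold, Lss 8.22-fold, Cyp51 11.8-fold, Fdft1 12.3-fold, Sqle 18.6-fold and Idi1 34.0-fold.

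Across mice most of the 7 genes varied together, while Hmgcs1 stood off from Fdps, Sqle and Cyp51. After the group means were subtracted from log2(FPKM + 1), the Pearson correlation over 20 mice had a median of 0.64 over the 21 pairs and ran from 0.02 to 0.97. It was above 0.5 in 16 pairs, and in 12 without NC 6. The 5 mice rich in Krt18 and Adgrg2 had the highest Cyp51 values, from 10.9 to 46.5 FPKM, and their part in these correlations was not tested. The highest was that of Sqle with Cyp51, at 0.97, and without NC 6 it was 0.94. Hmgcs1 gave 0.75 with Idi1, but 0.11 with Sqle and 0.18 with Cyp51, and without NC 6 these were 0.69, -0.18 and -0.10. Fdft1 lay between, at 0.77 with Lss, 0.72 with Idi1 and Cyp51, 0.59 with Sqle and 0.56 with Hmgcs1. The points share libraries and their mixture of cell types, so these values describe the mice and are given with no test.

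**Figure D3:**
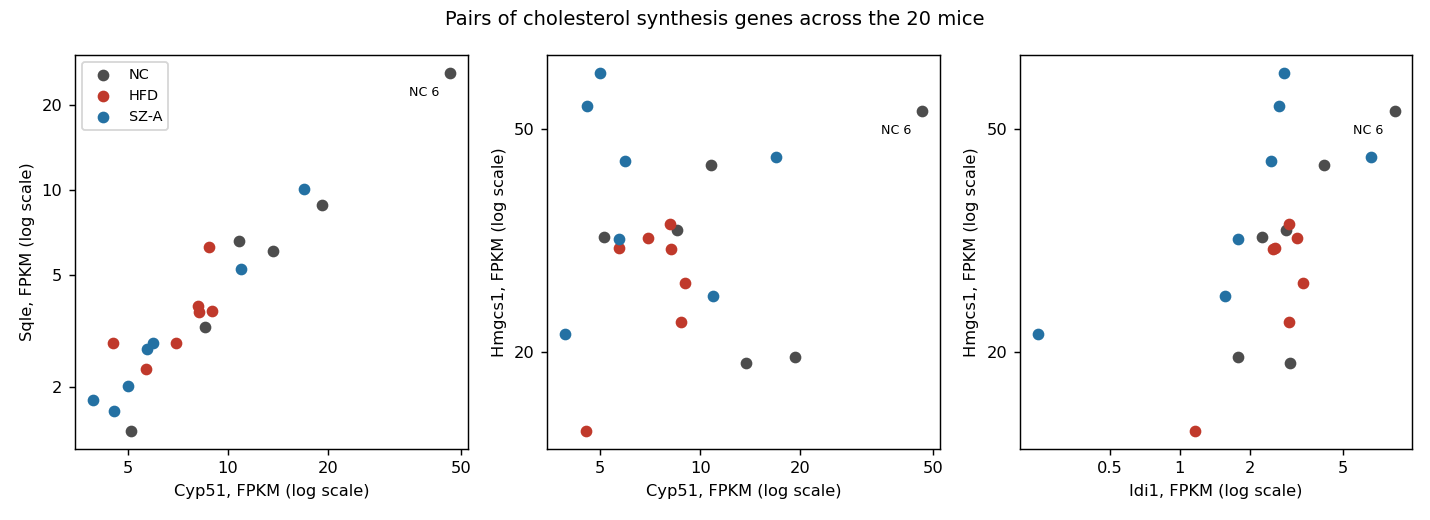
FPKM of 3 pairs of genes on log axes, with 1 point per mouse coloured by group and NC 6 named. Sqle follows Cyp51 along a line through all groups (correlation 0.97 with group means subtracted), whereas Hmgcs1 spreads widely at any level of Cyp51 (0.18) and goes up with Idi1 (0.75).

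Outside the pathway and marker lists, the genes most like the mean of the 7 members over 20 mice, with group means subtracted, were Map7 (Pearson correlation 0.94), Rab42 (0.94), Garem1, Stk39 and Mlh3 (0.93 each), of 12450 genes ranked. Without NC 6 they gave 0.88 to 0.90 and ranked from 6 to 17, and Lap3, an aminopeptidase gene named after its value was seen, came first at 0.91, so the order rests on that mouse. Map7, a microtubule-binding protein gene of epithelial cells, was 25.7 FPKM at its highest in NC against a group median of 4.55, and its log2 fold change was -1.33 in HFD against NC (adjusted p = 0.015, limma) and 0.78 in SZ-A against HFD (adjusted p = 0.036).

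Of 12 other enzymes of the route, all tested, 2 were lower and 1 higher in HFD than in NC and 9 did not pass, with a median log2 fold change of 0.09. Over all genes tested 20.1% were lower and 21.0% higher, so these counts lay near or below the background. With SZ-A set against HFD 1 was higher and 1 lower, beside 9.47% and 13.3% of all genes, with a median of 0.05. In SZ-A against NC 0 of 12 passed by limma without weights or by voom, with 2 at an unadjusted p under 0.05. With array quality weights limma called Mvk (0.57, adjusted p = 0.020) and Dhcr7 (0.84, adjusted p = 0.0010) higher there. It called Tm7sf2 lower (-1.505, adjusted p = 0.019), and over all genes 1713 higher and 926 lower. Without the 5 mice rich in Krt18 and Adgrg2, limma called 4 higher (Mvd, Msmo1, Ebp and Dhcr7) and 2 lower in HFD than in NC, 1 higher (Pmvk) and 2 lower (Msmo1 and Dhcr7) in SZ-A than in HFD, and 1 higher (Dhcr7) in SZ-A than in NC. Over all genes the calls without those mice were 3137 higher and 3136 lower in HFD than in NC and 1747 and 2052 in SZ-A than in HFD.

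Acat2, the cytosolic thiolase that makes the first intermediate, had a lowest, median and highest value of 18.8, 41.7 and 130.2 FPKM in NC, 5.97, 9.33 and 13.1 in HFD, and 8.40, 18.5 and 52.7 in SZ-A mice. Every NC mouse lay above every HFD mouse, and 5 of 7 SZ-A mice did. On the log2 scale it fell in HFD against NC, at -2.14 ± 0.38 (SE; adjusted p = 5.4e-04) and rose in SZ-A against HFD by 1.10 ± 0.35 (adjusted p = 0.035, limma). The highest values were those of NC 1, NC 6, SZ-A 7 and SZ-A 2, which also passed 100 FPKM in Krt18 and Adgrg2. Without the 5 mice that did, the values were -1.32 (adjusted p = 7.3e-04) and 0.58 (adjusted p = 0.064, limma), and the second call was also lost on leaving out any 1 of 9 of the 14 mice. Acat3 matches 1477 bases of its transcript at 97.7% identity, and Tcp1 445 bases at 98.7%, so its reads may be shared with them.

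Tm7sf2, a sterol reductase that acts just after Cyp51, fell in HFD against NC, at -1.73 on the log2 scale with an SE of 0.40 (adjusted p = 0.0036, limma). Its lowest, median and highest values were 0.813, 7.03 and 13.6 FPKM in NC and 0.754, 1.13 and 1.52 in HFD mice, with NC 3 among the HFD mice. The highest NC values were those of NC 1, NC 6 and NC 2, and without the 5 mice rich in Krt18 and Adgrg2 the difference was -0.85 (adjusted p = 0.036, limma). In SZ-A mice they were 0.928, 1.5 and 7.18 FPKM, and the difference from HFD, 0.61 ± 0.31, did not pass (adjusted p = 0.16). Tm7sf2 shares 532 exon bases, 12.1% of its exon length, with Vps51 on the same strand, so reads from that stretch are uncertain.

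Dhcr7, which reduces a late double bond on the way to cholesterol, was the enzyme of the 12 that rose in HFD against NC, by 1.15 ± 0.24 on the log2 scale (SE; adjusted p = 0.0019, limma). Dhcr7 was 0.824, 1.28 and 5.31 FPKM at its lowest, median and highest in NC, 3.72, 4.81 and 5.21 in HFD, and 2.40, 2.72 and 3.76 in SZ-A mice. NC 6 alone of the NC mice reached the HFD level, and all but 1 of the SZ-A mice lay below all HFD mice. In SZ-A against HFD Dhcr7 fell, at -0.56 ± 0.10 (adjusted p = 0.0013, limma; 0.062 with all 3 groups in the fit). Its direction was thus opposite to that of Fdft1 in both comparisons. Against NC, Dhcr7 in SZ-A mice was higher by 0.59 on the log2 scale (exact permutation p = 0.047, not adjusted). All 7 SZ-A mice lay above the NC median. Limma with all mice and no weights did not call this difference. On leaving out single mice it ran from 0.49 to 0.85, with adjusted p from 0.0019 to 0.37 in limma.

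The 8 enzymes Mvk, Mvd, Msmo1, Nsdhl, Hsd17b7, Lbr, Ebp and Sc5d did not pass in either of these comparisons, and neither did Pmvk. Pmvk, which phosphorylates mevalonate phosphate, was nearest to the threshold in SZ-A against HFD, at 0.68 ± 0.24 (SE; adjusted p = 0.052, limma), after -0.65 ± 0.33 in HFD against NC (0.13). That difference from HFD lay on either side of the threshold, since it was called in 6 of 12 alternatives: a mean of at least 1 FPKM, coding genes alone, median-ratio and quantile scaling, array quality weights, and without the 5 mice rich in Krt18 and Adgrg2. For the 8 others the log2 fold changes ran from -0.33 (Nsdhl) to 0.13 (Mvk) in HFD against NC and from -0.38 (Msmo1) to 0.16 (Mvk) in SZ-A against HFD.

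**Figure D4:**
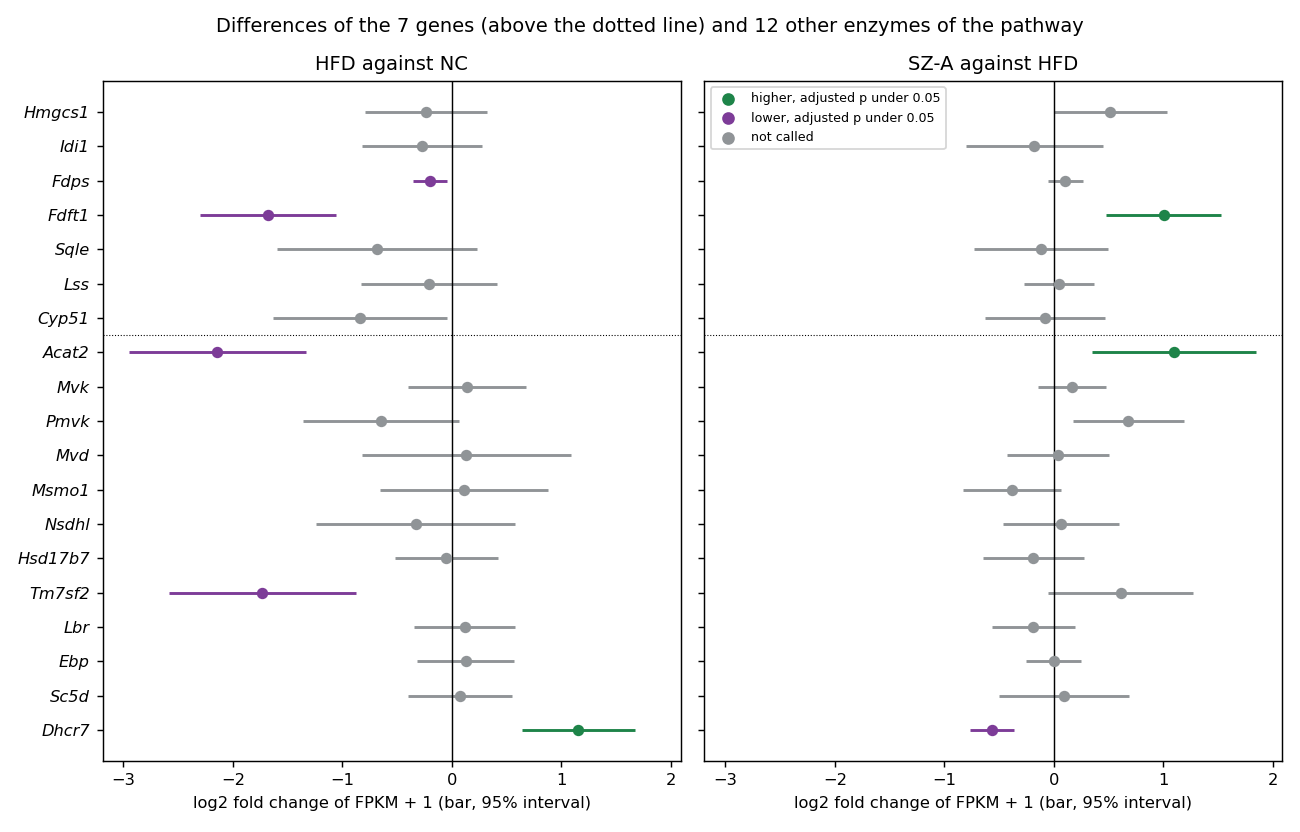
Log2 fold change on the log2(FPKM + 1) scale (point) with its 95% interval (bar) for the 7 genes and 12 other enzymes, in HFD against NC (left) and SZ-A against HFD (right). Fdft1 and Acat2 are lower in HFD (-1.68 and -2.14) and higher in SZ-A against HFD (1.0 and 1.10), and Dhcr7 does the opposite (1.15 and -0.56).

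Few genes that control the pathway were called. Apart from Mbtps2 in SZ-A against HFD, which ones changed with the mice left out and with the weights given to them. Of 12 on SREBP processing, 1 was higher and 1 lower in HFD than in NC, beside 21.0% and 20.1% of all genes tested. In SZ-A against HFD 0 were higher and 1 lower, beside 9.47% and 13.3%. In SZ-A against NC 0 passed by limma without weights or by voom, with 1 at an unadjusted p under 0.05. With array quality weights limma called Insig1 higher (0.87, adjusted p = 0.030) and Scap lower (-0.62, adjusted p = 0.023) in SZ-A than in NC. Without the 5 mice rich in Krt18 and Adgrg2, limma called 1 higher (Srebf2) and 2 lower (Insig2 and Ufd1) in HFD than in NC, and 0 higher and 3 lower (Srebf2, Mbtps2 and Erlin2) in SZ-A than in HFD. Scap, the escort of SREBP-2, fell in HFD against NC, at -0.55 ± 0.19 (SE; adjusted p = 0.030), from a median of 12.4 to 7.56 FPKM, and this call was lost without those mice (-0.15) and on leaving out any 1 of 5 of the 13 mice. Mbtps2, the second protease that frees SREBP-2, rose by 0.51 ± 0.15 (adjusted p = 0.015; 0.40 and not called without those mice) and in SZ-A against HFD fell, at -0.46 ± 0.13 (adjusted p = 0.021, limma). The call in SZ-A against HFD was kept on leaving out any 1 of the 14 mice and in the 12 other fits. Mbtps2 had medians of 2.11, 3.46 and 2.14 FPKM in NC, HFD and SZ-A mice.

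Srebf2, the gene of SREBP-2, had medians of 13.9, 16.5 and 11.1 FPKM in NC, HFD and SZ-A mice, and log2 fold changes of -0.04 ± 0.33 and -0.25 ± 0.19 that did not pass (adjusted p 0.94 and 0.34, limma). Leaving out the 5 mice rich in Krt18 and Adgrg2, they were 0.63 (adjusted p = 0.011) and -0.48 (adjusted p = 0.026), a change of sign in the first. Srebf1, whose product acts mainly on fatty acid genes, gave -0.52 ± 0.27 and 0.61 ± 0.22 (adjusted p 0.14 and 0.058, limma). Array quality weights, which give less weight to mice that vary more, called the second of these, at 0.81 (adjusted p = 8.4e-04). With these weights Srebf2 was also called lower in SZ-A than in HFD, at -0.48 (adjusted p = 0.0071, limma). Of the retention factors, Insig1 gave 0.41 ± 0.31 and 0.01 ± 0.30, and Insig2 gave -0.60 ± 0.26 and 0.18 ± 0.17, none of them called. Insig2 in HFD against NC was called without the 5 mice rich in Krt18 and Adgrg2, at -1.13 (adjusted p = 1.1e-04, limma). With array quality weights Insig2 was called in both comparisons, at -0.80 and 0.47 (adjusted p 6.1e-04 and 0.0055), and Insig1 in the first, at 0.73 (adjusted p = 0.024). The 6 others, Mbtps1, Erlin1, Erlin2, Rnf139, Ufd1 and Vcp, had log2 fold changes from -0.25 to 0.38 and from -0.36 to 0.21, and Ufd1 was called in the second comparison with array quality weights, at 0.35 (adjusted p = 0.0014).

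Among 8 tested genes of cholesterol uptake and transport, Npc1, which moves cholesterol out of lysosomes, and Lrp1, a lipoprotein remnant receptor, were the 2 that rose in HFD against NC (1.24 and 2.78) and the 2 that fell in SZ-A against HFD (-1.07 and -1.09; adjusted p 0.0012 or less in each, limma). Of 11 tested genes of sterol efflux and LXR targets, 5 were higher and 1 lower in HFD than in NC, and 1 was higher and 5 lower in SZ-A than in HFD. Over all genes tested 21.0% were higher and 20.1% lower in the first comparison, and 9.47% and 13.3% in the second. Nceh1, which frees stored cholesterol in macrophages, had the smallest adjusted p in HFD against NC (3.80 ± 0.27, SE; adjusted p = 2.6e-07, limma), followed by Soat1 (2.28), which stores it, Pltp (3.96), which transfers phospholipid between lipoproteins, and the lower gene, the apolipoprotein gene Apoc1 (-2.10). The same 4 genes gave, with SZ-A against HFD, -1.47, -1.10, -1.32 and 1.64. Nceh1, Soat1 and Pltp moved in the direction of the 15 macrophage markers, of which 14 were higher in HFD than in NC and 13 lower in SZ-A than in HFD, while Apoc1 moved the opposite way. The part of the macrophage difference in these genes was not tested.

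Of 9 tested genes on the side branches of mevalonate, 1 was higher and 3 lower in HFD than in NC, and 2 were higher and 0 lower in SZ-A than in HFD. The shares of all genes, for these and the fatty acid counts below, were 21.0% higher and 20.1% lower, then 9.47% and 13.3%. Coq2 and Pdss2, of ubiquinone synthesis, fell (-0.49 and -0.36) and rose again in SZ-A against HFD by 0.58 and 0.31 (adjusted p 0.0057 and 0.0067, limma). Nus1, of dolichol synthesis, rose in HFD against NC by 0.53, and Fntb, a protein farnesyltransferase subunit, fell, at -0.27 (adjusted p 0.0023 and 0.048). Of 12 fatty acid synthesis genes, 3 were lower in HFD than in NC (Elovl6, Acacb and Mlxipl, -1.72, -1.73 and -0.83) and 3 were higher in SZ-A mice when set against HFD (Mlxipl, Acacb and Thrsp, 1.02, 1.22 and 1.49). Their median was -0.79 in the first comparison and 0.39 in the second, beside -0.27 and 0.05 for the 7 genes described here.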

How the data were processed

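Poly(A) RNA libraries of eWAT from 20 mice (NC n = 6, HFD n = 7, SZ-A n = 7 by the labels) were made with a NEBNext Ultra kit. The study describes 7 mice a group, while the labels used here give 6 NC mice. After alignment to GRCm38 with HISAT2, the authors deposited FPKM for 14776 genes, each above 0 in every mouse. The submitters' processing notes name featureCounts 1.5.0-p3, and its strand setting is not given in the sources used here. Multiplied by exon length in GENCODE release M21 (14770 genes matched), 95.9% to 96.3% of the values under 1000 reads came out as whole reads, with a tolerance of 0.01 reads. The reads recovered in this way on deposited genes came to between 13567667 and 19388628 per mouse. In some mice that sum was above the library size implied by the same values (HFD 1, 17216011 against 15406889), and in others below it (NC 6, 13567667 against 14573009). A part of a library cannot exceed the whole, so the recovered reads of some genes are too high. The read numbers, mitochondrial shares and voom fit rest on them and are approximate.

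Groups were compared in pairs with limma 3.58.1 (lmFit and eBayes with trend, R 4.3.3) on log2(FPKM + 1). Genes whose mean fell short of 0.1 FPKM in the mice compared were left out. Tests were two-sided, with Benjamini-Hochberg adjustment over all genes tested and calls at an adjusted p under 0.05. Fold changes on this scale understate changes of low genes. Exact permutation tests of single genes were two-sided over every regrouping of the mice. Replicates are different mice. The fit was tested on simulated data. Copies of transcripts were found with blastn 2.17.0, and tables and plots were made with Python 3.11.15, pandas 2.3.3 and matplotlib 3.10.9.

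The members and gene lists were chosen with earlier results of these data known. The genes named are the 7 members, each tested gene of the lists of other enzymes and of SREBP processing, up to 4 called genes with the smallest adjusted p from each other list, the 5 genes outside the lists that varied most like the members, and, chosen in addition, Ctsb and the genes that share sequence with a member or with Acat2. Some genes of these lists are not reported here, and the counts are over the others. For the other marker lists, called genes in HFD against NC were 1 higher and 2 lower of 13 for adipocytes, 4 and 1 of 6 for fibroblasts, 0 and 4 of 5 for smooth muscle, 0 and 1 of 2 for mesothelium, and 0 in either direction of 6, 2 and 6 for T cells, B cells and endothelium, by limma. In SZ-A against HFD they were 1 and 0, 0 and 5, 1 and 0, 0 and 0, and 0 and 1 for T cells with 0 for the last pair. All genes tested gave 21.0% higher and 20.1% lower in the first comparison, and 9.47% and 13.3% in the second. The alternatives tried were other pseudocounts (0.1 and 0.01), tests without a filter, with a minimum mean of 1 FPKM and on coding genes alone, median-ratio and quantile scaling, a joint fit of the 3 groups, array weights, a block for the replicate number, voom with the reads recovered, the study's threshold and leaving out each mouse. Leaving out the mice with Krt18 and Adgrg2 above 100 FPKM was chosen after seeing the data.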

Additional observations from a re-analysis of the deposited data

Results flagged for a closer look

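In 8 of the 21 groups of values (7 genes in 3 groups), 1 mouse lay far from the others by Dixon's test. Its chance rate of about 1 of 20 groups holds for normally distributed, independent values. The test was run on FPKM without a log, and the 7 genes share the same mice, so that rate does not apply here and the count is a description. NC 6 was the far mouse for Idi1 (8.34 FPKM), Sqle (26.1), Lss (8.47) and Cyp51 (46.5), each above the rest of its group. SZ-A 2 was far above its group for Idi1 (6.58 FPKM) and Sqle (10.1). HFD 5 was far above the HFD mice for Sqle (6.32 FPKM), and HFD 1 far below them for Idi1 (1.17 FPKM). NC 6 and SZ-A 2 also had the highest sums of Krt18 and Adgrg2 in their groups, 872.2 and 221.8 FPKM, and HFD 1 the highest macrophage marker sum, 10628 FPKM. The part of either in these values was not tested.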

How the results depend on the processing

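Fdft1 was called lower in HFD than in NC (-1.87 to -1.28) in every alternative and on leaving out each mouse, and against HFD it was called higher in SZ-A (0.84 to 1.18) in all but the study's threshold of 1.5 log2 units. The 2 members lower in HFD than in NC became 1 with a pseudocount of 0.1 or 0.01, a mean of at least 1 FPKM, quantile normalization, all 3 groups in the fit, voom, the replicate block, the study's threshold and without the mice rich in Krt18 and Adgrg2, as the Fdps call was lost or Fdps was not tested, and 1 to 4 on leaving out single mice, 4 without NC 3. The median of the members was -0.75 with a pseudocount of 0.1 and -0.76 with 0.01. In SZ-A against HFD the 1 member higher became 2 with array quality weights (Hmgcs1, 0.70), 0 at the study's threshold and 1 to 2 on leaving out mice, 2 without SZ-A 5, and 1 member (Sqle) was lower without the mice rich in Krt18 and Adgrg2. In SZ-A against NC array quality weights gave 1 higher (Hmgcs1, 0.79) and 1 lower (Cyp51, -0.83). Srebf2 reversed in HFD against NC without those mice, to 0.63. The cause of these changes was not tested. Over all genes, SZ-A against HFD had 1392 genes higher and 1957 lower, against 725 higher with all 3 groups in the fit and 3214 and 3189 with array quality weights. SZ-A against NC had 611 and 67, against 1153 and 374 with all 3 groups, 1713 and 926 with array quality weights, 152 and 15 with the replicate block, 112 lower with quantile normalization and 130 higher without the mice rich in Krt18 and Adgrg2. At the study's threshold the counts were 799 and 373 for HFD against NC, 45 and 82 for SZ-A against HFD, and 255 and 8 for SZ-A against NC. On leaving out mice, SZ-A against HFD ran from 863 to 1902 higher, and SZ-A against NC from 396 to 713 higher and 25 to 147 lower. Same-numbered mice deviated together with correlations from -0.415 to 0.593, so the numbers do not pair the mice, and the block changed no other call of a member. Fdps and the low values of Idi1 are limited by depth.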
